A study of Mus musculus with 9 samples.

Results

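A set of 10 genes that control how long cytokine mRNAs last in the cell was followed by RNA-seq in mouse BMDMs, macrophages grown in culture from bone marrow. They were chosen by symbol as known regulators of cytokine mRNA decay (Zfp36, Zfp36l1, Zfp36l2, Zc3h12a, Zc3h12c, Zc3h12d, Rc3h1, Elavl1, Khsrp and N4bp1), a rule on names, made with earlier results of these data known. All 10 were present among the 24061 gene symbols of the count table, each on 1 row. The cells came from adult female C57BL/6J mice, were differentiated for 7 days in medium with L-cell supernatant, and were then kept without serum for a day. There were 3 groups of 3 libraries. Veh received DMSO alone. LPS received DMSO and then lipopolysaccharide, a bacterial agonist of the receptor TLR4, at 10 ng/mL for 2 hr. T0+LPS received 500 nM of T0901317 (T0), an agonist of the nuclear receptor LXR, for 3 hr before the same LPS dose. All groups were wild type, the harvest time of Veh is not given in the sources used here, and T0 without LPS was not among these libraries.

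Cytokine mRNAs are short-lived because proteins bind elements in their 3′ untranslated regions (3′UTRs) and direct their destruction. Zfp36 (tristetraprolin) and its relatives Zfp36l1 and Zfp36l2 bind AU-rich elements and recruit the CCR4-NOT deadenylase. Zc3h12a (Regnase-1) is an endonuclease that cuts stem-loops in cytokine mRNAs, Zc3h12c and Zc3h12d are its relatives, and Rc3h1 (Roquin-1) binds similar stem-loops. Khsrp (KSRP) promotes decay of AU-rich mRNAs, Elavl1 (HuR) binds the same kind of element and generally stabilizes the mRNA, and N4bp1 encodes an RNase that restrains cytokine production. In TLR-stimulated macrophages the decay-promoting proteins among them are known as brakes that limit the length of the cytokine response, and several of their own mRNAs are subject to the same control.

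Because some of these mRNAs can be bound by the proteins they encode, the AU-rich sites in their own 3′UTRs are shown first. The heptamer searched was TATTTAT, with U for T in the RNA, the core that Zfp36 proteins prefer. It was present in the 3′UTRs of 6 of the 10 genes, where 27.4% of 20918 coding genes of the GENCODE M21 annotation had at least 1. These shares are not matched for length. The median 3′UTR of the coding genes was 935 bases, and of the 10 genes only Zfp36 and Zc3h12a were shorter. For the 10 genes the transcript nearest the counted row was used, and for the others the longest. Zfp36 held 3 copies in 767 bases (3.91 per kilobase), and Zfp36l1 and Zfp36l2 held 3 each in 1835 and 1822 bases. Elavl1 held 8 in 4218 bases (1.90 per kilobase), counting overlapping copies. Over all 3′UTRs the density was 0.312 per kilobase. Zc3h12c and Rc3h1 held 2 each in 3421 and 7181 bases (0.585 and 0.279 per kilobase), and Zc3h12a, Zc3h12d, Khsrp and N4bp1 held none. A window from each of the 4 densest 3′UTRs follows, 5′ to 3′ on the transcribed strand, with the heptamer in capitals. All lie in the 3′UTR on the minus strand of GRCm38 (mm10), at chr7:28376959-28376986 for Zfp36, chr12:80108422-80108450 for Zfp36l1, chr17:84184914-84184942 for Zfp36l2 and chr8:4285777-4285805 for Elavl1.
Zfp36: cttTATTTATgacgacttTATTTATtgt
Zfp36l1: ttatcaaaacgTATTTATtgccaaactat
Zfp36l2: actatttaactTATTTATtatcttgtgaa
Elavl1: TATTTATTTATTTATTTATtttTATTTAT
The 2 sites in the Zfp36 window lie close together, and the Elavl1 window holds 5 overlapping or adjacent copies. These matches describe the sequence, and binding was not measured here.

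Each library held between 13299044 and 16467983 counted reads. Levels are given as CPM, read counts scaled to library size and TMM factors, which correct for a few abundant genes taking up reads. The tests were made with edgeR's quasi-likelihood method over all genes that passed a filter on low counts, and a gene was called at a Benjamini-Hochberg adjusted p under 0.05. All 10 genes passed the filter in each comparison. Between 213 and 18248 reads per library lay behind their values. Abca1, an LXR target, had 729 ± 4.96 CPM (SD, n = 3) in Veh, 1842 ± 159 in LPS and 5108 ± 185 in T0+LPS, which checks the T0 label. Of 7 macrophage markers in the table, 6 had a mean of at least 5 CPM in every group, and the other, Itgam, had only 3 bases that could be counted. The summed level of the macrophage markers was 24261 to 26502 CPM in Veh, 28900 to 30537 in LPS and 31553 to 33146 in T0+LPS, so it moved with the groups, and its part in the results was not tested. No marker of neutrophils, T and NK cells, B cells, dendritic cells or fibroblasts reached 5 CPM in any group. The summed level of the neutrophil markers was 0.749 to 1.33 CPM in Veh, 2.16 to 3.20 in LPS and 1.81 to 1.87 in T0+LPS. That of the dendritic cell markers was 0.232 to 0.529 CPM in Veh, 2.24 to 2.91 in LPS and 1.87 to 3.00 in T0+LPS. Both lists were thus higher in every LPS-treated library than in Veh, and their part in the results was not tested either. The T and NK cell, B cell and fibroblast lists summed to at most 0.662 CPM in any library. Of these markers, S100a9, Retnlg, Cd3e, Ebf1, Siglech, Dcn and Pdgfra had no reads in any library. The neutrophil, B cell and fibroblast lists each held 1 marker with only a small part of its bases countable, so a lack of reads need not mean absence. In bulk RNA, a lower number of cells expressing a gene and less of its RNA per cell cannot be told apart.

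LPS changed the level of all 10 genes, 7 upward and 3 downward. The largest rises were those of the Regnase genes Zc3h12c (19.4-fold) and Zc3h12a (10.7-fold), followed by N4bp1 (3.62-fold) and Zfp36 (2.01-fold). The falls were those of Zfp36l2 (6.30-fold), Zfp36l1 (4.62-fold) and Zc3h12d (3.83-fold), so both protein families held members that moved in opposite directions. In this comparison 64.1% of the 9559 genes tested were called, 32.9% higher and 31.2% lower, so being called alone did not set these genes apart. The groups did not overlap for any of the 10, which was so for 33.6% of all genes with LPS higher and 33.7% with LPS lower. By size of the change, Zc3h12c ranked 116th and Zc3h12a 175th from the top of all genes tested by log2 fold change, and Zfp36l2, Zfp36l1 and Zc3h12d ranked 39th, 65th and 108th from the bottom.

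**Figure D1:**
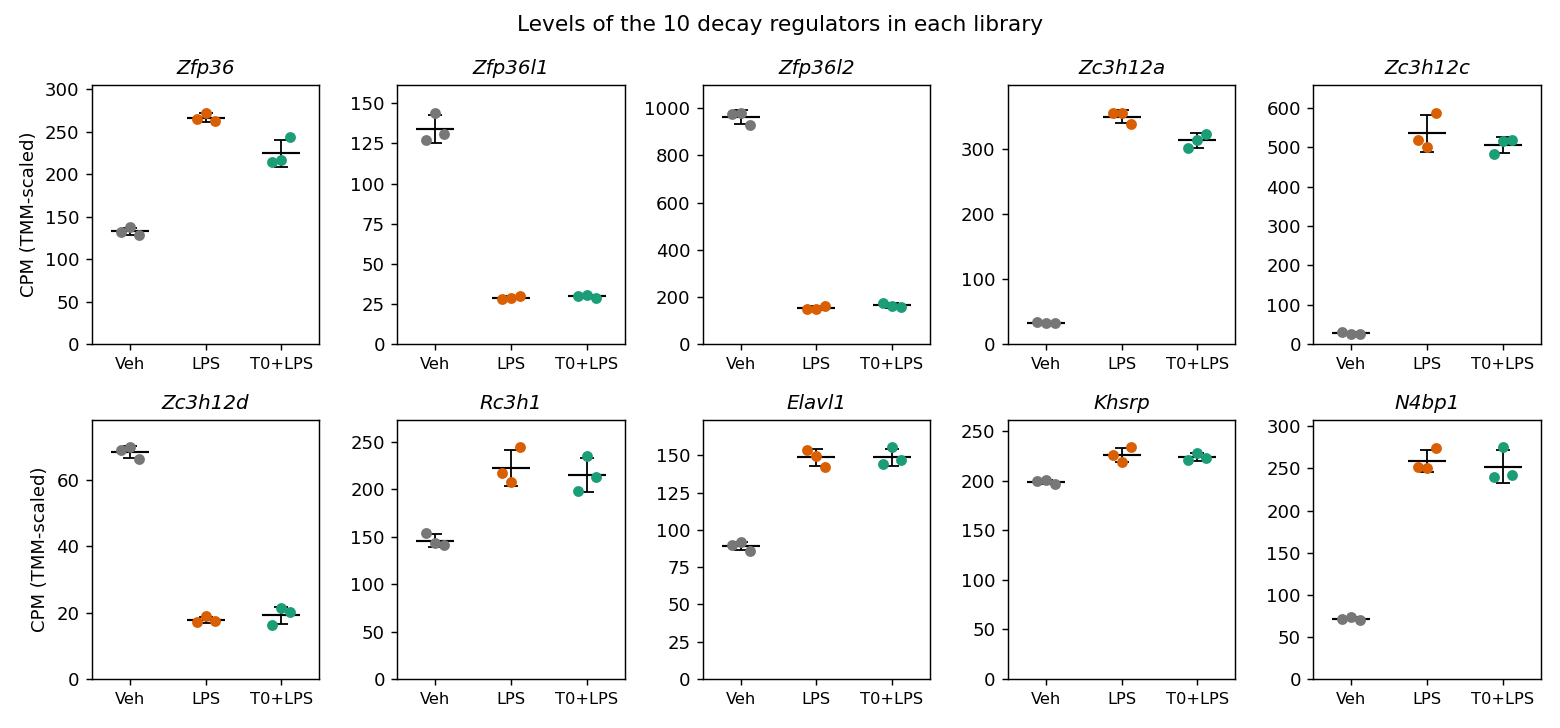
Level of each gene in each library (points, CPM scaled by TMM factors, y axis from 0 with its own range per gene) in Veh, LPS and T0+LPS, with the mean (line) and SD (bar) of 3 libraries. Zc3h12a, Zc3h12c and N4bp1 rise with LPS, Zfp36l1, Zfp36l2 and Zc3h12d fall, and the LPS and T0+LPS points lie apart for Zfp36 and Zc3h12a.

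Zfp36, the best-known binder of AU-rich cytokine mRNAs, has 2 exons on the minus strand of chromosome 7 in mm10 (28376784 to 28379228). Its level was 133, 137 and 129 CPM in the Veh libraries and 265, 272 and 262 CPM in the LPS libraries. The groups lay far apart, with every LPS library above every Veh library, and edgeR fitted a log2 difference of 1.01 ± 0.04 (SE) at an adjusted p of 4.3e-12. Zfp36l2 (minus strand, chromosome 17, 84183928 to 84187947) had 976, 980 and 928 CPM in Veh and 147, 147 and 162 CPM in LPS. It was the most abundant of the 10 genes before LPS and fell in every library, by a fitted log2 difference of -2.65 ± 0.05 (SE; edgeR, adjusted p 5.8e-17). Zfp36l1 (minus strand, chromosome 12, 80107760 to 80113013) had 127, 144 and 131 CPM in Veh and 28.0, 28.9 and 29.9 CPM in LPS. Its 3 LPS libraries were all below the lowest Veh library, and edgeR fitted a log2 difference of -2.21 ± 0.06 (SE) at an adjusted p of 9.2e-15.

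The opposite changes altered the make-up of the Zfp36 family. Per kilobase of countable sequence, which allows genes to be compared, Zfp36l2 made up 69.4 ± 0.684% (SD, n = 3) of the family's summed level in Veh, Zfp36 19.2 ± 0.112% and Zfp36l1 11.4 ± 0.572%. In LPS the order of the first 2 was exchanged, with 74.1 ± 1.27% for Zfp36, 21.2 ± 1.16% for Zfp36l2 and 4.76 ± 0.122% for Zfp36l1. The summed level of the 3 genes was 392 ± 12.3 CPM per kilobase in Veh and 204 ± 2.39 CPM per kilobase in LPS, with no overlap between the libraries. The gain of Zfp36 was thus smaller than the loss of its relatives. These shares do not depend on how libraries are scaled against each other, while the sums do.

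**Figure D2:**
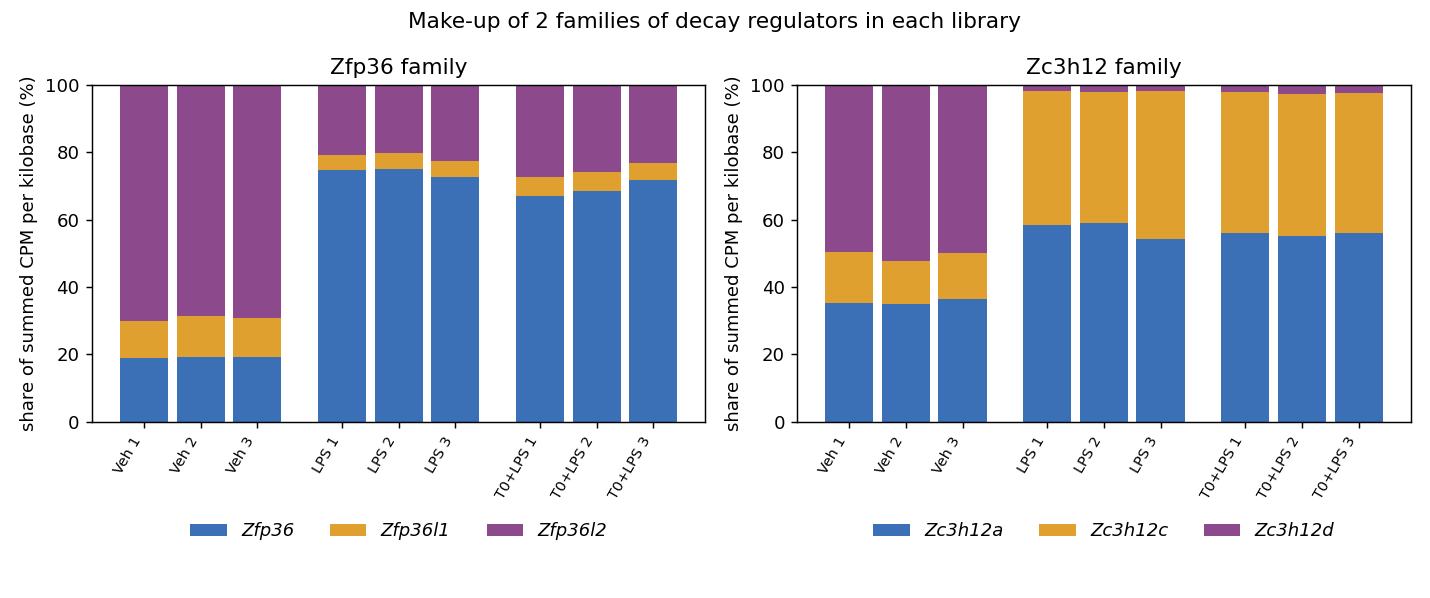
Share of each gene in the summed CPM per kilobase of its family (y axis, percent) in each of the 9 libraries (bars), for the Zfp36 family (left) and the Zc3h12 family (right). Zfp36l2 makes up most of the left family in the 3 Veh libraries and Zfp36 in the 6 LPS-treated libraries, and Zc3h12d shrinks to under 3% of the right family after LPS.

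Of the Regnase genes, 2 rose and 1 fell. Zc3h12a (minus strand, chromosome 4, 125118414 to 125127881) had 33.6, 31.9 and 33.0 CPM in Veh and 355, 354 and 338 CPM in LPS. The LPS libraries lay about an order of magnitude above the Veh libraries, by a fitted log2 difference of 3.41 ± 0.05 (SE; edgeR, adjusted p 3.6e-18). Zc3h12c (minus strand, chromosome 9, 52111985 to 52168111) had 30.8, 25.4 and 26.5 CPM in Veh and 517, 500 and 587 CPM in LPS. It went from the lowest level per kilobase of the 10 genes in Veh to the third highest in LPS, by a fitted log2 difference of 4.28 ± 0.08 (SE; edgeR, adjusted p 3.4e-17). Zc3h12d (plus strand, chromosome 10, 7832470 to 7870397) went the other way, from 68.9, 69.7 and 66.3 CPM in Veh to 17.1, 18.9 and 17.4 CPM in LPS. All LPS libraries were below all Veh libraries, and edgeR fitted a log2 difference of -1.94 ± 0.06 (SE) at an adjusted p of 9.8e-14. Per kilobase, Zc3h12d made up 50.6 ± 1.40% of this family in Veh and 2.00 ± 0.143% in LPS (SD, n = 3). Zc3h12a made up 57.2 ± 2.62% and Zc3h12c 40.8 ± 2.71% in LPS. The family's summed level was 33.0 ± 0.836 CPM per kilobase in Veh and 218 ± 4.33 in LPS.

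N4bp1, which encodes a cytosolic RNase, lies on the minus strand of chromosome 8 (86841139 to 86885258). It had 71.3, 73.7 and 69.7 CPM in Veh and 251, 250 and 274 CPM in LPS. The groups did not overlap, and edgeR fitted a log2 difference of 1.86 ± 0.05 (SE) at an adjusted p of 7.4e-15. Elavl1 (minus strand, chromosome 8, 4284782 to 4325100) rose from 89.1 ± 2.89 to 149 ± 5.78 CPM (SD, n = 3), with a log2 difference of 0.74. Rc3h1 (plus strand, chromosome 1, 160906411 to 160974976) rose from 146 ± 6.76 to 223 ± 19.0 CPM (SD, n = 3), with a log2 difference of 0.61. Khsrp (minus strand, chromosome 17, 57021049 to 57031507) changed least, from 199 ± 1.88 to 226 ± 7.34 CPM (SD, n = 3), or 0.19 on the log2 scale (edgeR, adjusted p 0.0010). In LPS against Veh, Khsrp was the only one of the 10 whose direction turned under another scaling. With library totals alone its log2 fold change was -0.09 (adjusted p = 0.057 from edgeR), that setting put the median of all genes at -0.28, and the genes called in all became 1694 higher and 5411 lower in place of 3148 and 2981.

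Per kilobase, the order of the 10 genes in Veh began with Zfp36l2 (272 ± 8.29 CPM per kilobase), Zfp36 (75.2 ± 2.47), Khsrp (49.8 ± 0.471) and Zfp36l1 (44.9 ± 2.97; SD, n = 3 each). It ended with Zc3h12a (11.7 ± 0.308), N4bp1 (11.1 ± 0.314) and Zc3h12c (4.58 ± 0.469). In LPS the order began with Zfp36 (151 ± 2.92), Zc3h12a (125 ± 3.40), Zc3h12c (88.9 ± 7.70) and Khsrp (56.6 ± 1.84), and ended with Zfp36l1 (9.70 ± 0.319) and Zc3h12d (4.35 ± 0.246). Neighbours in the order whose libraries overlapped were Zc3h12a and N4bp1 in Veh and Zfp36l2 and N4bp1 in LPS. In T0+LPS the order was that of LPS, and no neighbours overlapped.

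T0 given before LPS lowered 1 of the 10 genes past the threshold, Zfp36, and none was called higher. Over all 9348 genes tested, 3.18% were called, 1.83% lower and 1.35% higher. The T0+LPS libraries lay entirely below the LPS libraries for 2 of the 10, Zfp36 and Zc3h12a, where this was so for 9.62% of all genes, and entirely above for none of the 10 and 9.51% of all genes. The median log2 fold change of the 10 was -0.02, and that of all genes was 0.0028. Unadjusted p-values were under 0.05 for these 2 genes.

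**Figure D3:**
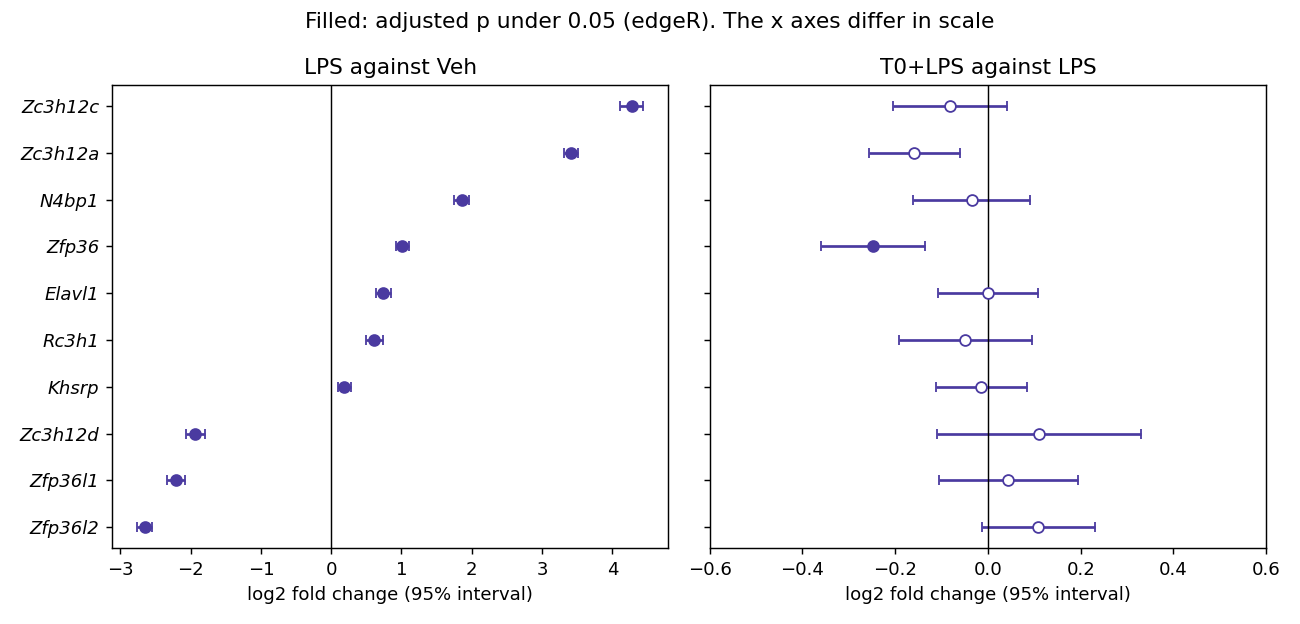
Log2 fold change of each gene (points) with its 95% interval (bars) from edgeR, for LPS against Veh (left) and T0+LPS against LPS (right), filled where the adjusted p was under 0.05. All 10 are filled on the left, between -2.65 and 4.28, and on the right, where the axis is narrower, Zfp36 alone is filled at -0.25.

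Zfp36 had 214, 216 and 243 CPM in the T0+LPS libraries, against 265, 272 and 262 CPM in LPS. T0+LPS replicate 3 stood above the other 2, and all 3 stayed below the lowest LPS library. By edgeR the difference was -0.25 ± 0.05 (SE) on the log2 scale, with a 95% interval of -0.36 to -0.14 and an adjusted p of 0.015, which is a level 0.843 times that of LPS. The call was kept under all 8 alternative settings, with adjusted p-values from 0.00033 to 0.018 by edgeR, DESeq2 or limma-voom. It was lost in 3 of the 6 edgeR fits that left out a library, with adjusted p of 0.069 without LPS replicate 1, 0.080 without T0+LPS replicate 1 and 0.11 without T0+LPS replicate 2, while the log2 fold change stayed between -0.31 and -0.21.

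Zc3h12a had 301, 314 and 323 CPM in T0+LPS, against 355, 354 and 338 CPM in LPS. The groups did not overlap, but the gap between the nearest libraries was smaller than the range within T0+LPS. By edgeR the difference was -0.16 ± 0.05 (SE) on the log2 scale, with a 95% interval of -0.26 to -0.06, and it did not pass the threshold (adjusted p 0.083). It passed when all 9 libraries were fitted together (adjusted p = 0.036) or without LPS replicate 3 (adjusted p = 0.035), both from edgeR, and the adjusted p was up to 0.35 in the other fits without a library.

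**Figure D4:**
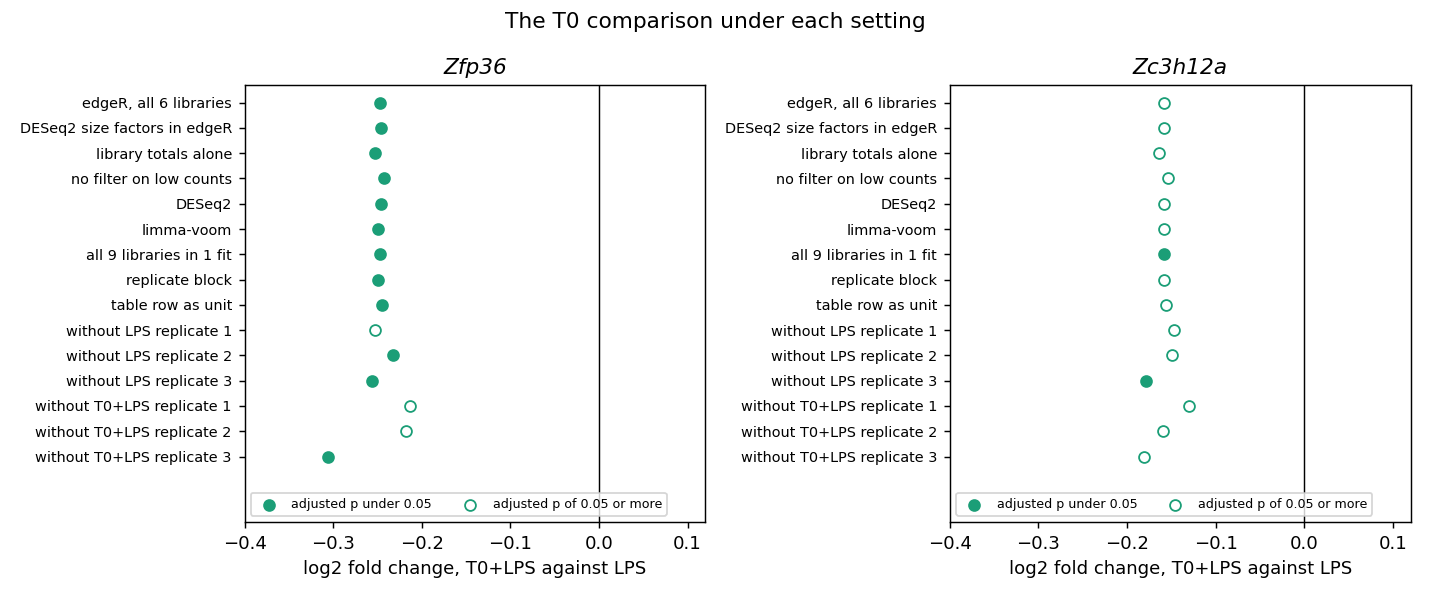
Log2 fold change (x axis) between T0+LPS and LPS libraries for Zfp36 (left) and Zc3h12a (right) under each setting (rows), filled where the adjusted p was under 0.05. The Zfp36 values lie between -0.31 and -0.21 and the Zc3h12a values between -0.18 and -0.13, all on the same side of 0.

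The other 8 genes did not pass in T0+LPS against LPS, where edgeR gave adjusted p-values of 0.43 to 1.00, and their groups overlapped. Zfp36l2 had 175, 162 and 156 CPM in T0+LPS and a log2 fold change of 0.11 (95% interval -0.01 to 0.23). Zc3h12c had 482, 516 and 517 CPM and -0.08 (-0.20 to 0.04). For Zfp36l1 the value was 0.04 (-0.11 to 0.19), for Zc3h12d 0.11 (-0.11 to 0.33) and for Rc3h1 -0.05 (-0.19 to 0.09). N4bp1 had -0.04 (-0.16 to 0.09), Khsrp -0.01 (-0.11 to 0.08) and Elavl1 0.00 (-0.11 to 0.11). The widest of these intervals, that of Zc3h12d, reached a 1.26-fold rise, so differences inside these intervals could not be resolved with 3 libraries per group. In simulated counts for this comparison, edgeR recovered 69 of 100 genes changed by 1.5-fold among 9348. The changed genes were drawn from all genes tested, whatever their level, so this share does not describe these 8 genes.

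All 10 genes still differed from Veh after T0 and LPS together. T0+LPS against Veh shares its libraries with the other comparisons, so its values are given only beside them. The log2 fold changes were 0.74 for Zfp36, 3.23 for Zc3h12a, 4.17 for Zc3h12c and 1.80 for N4bp1, and -2.57 for Zfp36l2, -2.19 for Zfp36l1 and -1.85 for Zc3h12d. They were 0.72 for Elavl1, 0.54 for Rc3h1 and 0.15 for Khsrp, whose value was -0.11 with library totals alone (adjusted p 0.0088, edgeR). Calls and directions were those of LPS against Veh for all 10, where 65.3% of all genes tested were called, 32.4% higher and 32.9% lower. The T0+LPS and Veh libraries did not overlap for any of the 10, as for 35.6% of all genes with T0+LPS higher and 33.8% with it lower. Within the Zfp36 family, Zfp36 made up 69.2 ± 2.44% per kilobase in T0+LPS (SD, n = 3), with libraries between 67.1% and 71.9%, below the 72.6% to 75.0% of the LPS libraries. Zfp36l2 made up 25.4 ± 2.17% in T0+LPS. The family's summed level was 184 ± 6.92 CPM per kilobase, against 204 ± 2.39 in LPS.

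The proteins made from these genes are switched by kinases and by the protease MALT1, which cleaves Regnase-1, Roquin-1 and N4BP1. Of 20 genes for such enzymes, 16 were tested, and 14 rose with LPS and none fell, where 32.9% of all genes were called higher and 31.2% lower. Their median log2 fold change was 0.80, beside -0.0019 for all genes. Chuk, Irak1, Btrc and Akt1 were not tested, and all 4 were counted on several rows. Of the 20 genes, 5 had only a small part of their bases countable. Mapk14, which was not called, had 1.18 CPM in Veh and 1.73 CPM in LPS, so the list covers only part of these enzymes. Malt1 rose most, from 189 ± 4.01 CPM in Veh to 1459 ± 77.0 CPM in LPS (SD, n = 3), or 2.95 on the log2 scale (edgeR, adjusted p 1.5e-17). Mapkapk2, whose product MK2 phosphorylates tristetraprolin and lowers its activity, rose from 339 ± 5.51 to 1806 ± 19.1 CPM (SD, n = 3), with a log2 difference of 2.42. In T0+LPS against LPS, Malt1 was the only one of the 16 called, where 3.18% of all genes were. It fell to 1164 ± 99.2 CPM (SD, n = 3), which is -0.33 ± 0.06 (SE) on the log2 scale (edgeR, adjusted p 0.0042), and it was called in all 6 fits that left out a library, with adjusted p up to 0.036.

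**Figure D5:**
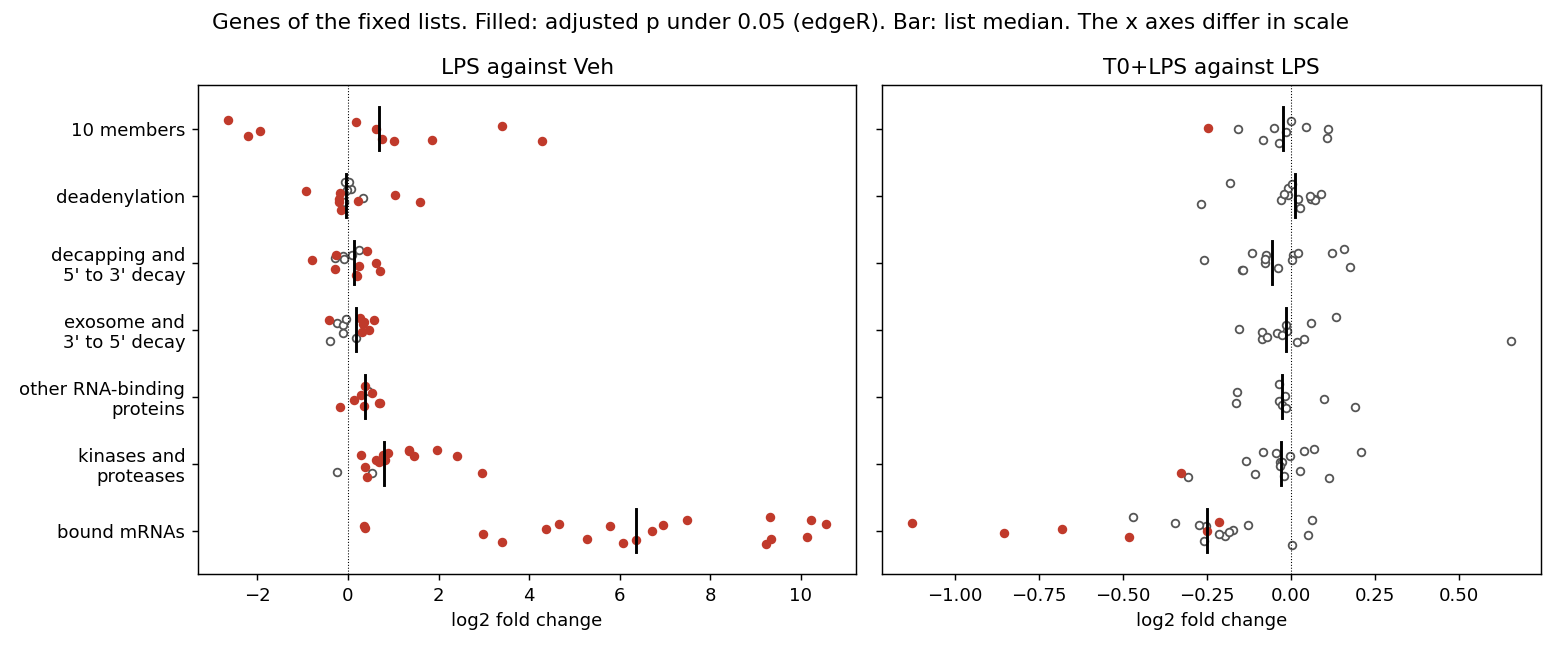
Log2 fold changes (x axis, with different ranges left and right) of the 10 genes and of the genes of 6 lists (rows), with 1 point per gene tested, filled where the adjusted p from edgeR was under 0.05, and a bar at each median. In LPS against Veh the bound mRNAs have a median of 6.35 and the other lists medians between -0.05 and 0.80. In T0+LPS against LPS most points are open, and 6 bound mRNAs are filled below 0.

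Many mRNAs that these proteins are known to bind rose with LPS from near absence. Of 22 listed, among them cytokines, chemokines and inhibitors of NF-κB, 19 were tested. All 19 rose with LPS, where 32.9% of all genes were called higher, with a median log2 fold change of 6.35. Il12b, Il23a, Csf2, Tnf, Cxcl3 and Il6 had between 1 and 8 reads over the Veh libraries together. They could pass the filter on low counts only through their LPS libraries, so being tested already fixed their rise. The same held for Tnfaip3, with 5 to 9 reads per Veh library. Il1a, Ptgs2 and Cxcl1 had as few as 5, 7 and 8 reads in a Veh library, so they too needed an LPS library to pass. The count of 19 is thus partly set by the filter. For 3 of the 19 the Veh libraries held at most 3 reads together. With the Veh level of these set at 3 reads over the group the median was 5.87. Among those that rose were the neutrophil-attracting chemokine genes Cxcl3, from 0.146 ± 0.134 to 220 ± 4.10 CPM, and Cxcl1, from 0.763 ± 0.297 to 907 ± 16.8 CPM (SD, n = 3). Cxcl3 had 0 to 4 reads per Veh library, so its fold change is not given. In T0+LPS against LPS, 6 of the 19 fell, 13 did not pass and none rose, where 1.83% of all genes were called lower and 1.35% higher, and the median was -0.25 beside 0.0028 for all genes. Those that fell were Il23a (-1.13), Il1a (-0.85), Ptgs2 (-0.68), Il1b (-0.48), Cxcl1 (-0.25) and Cxcl2 (-0.21). The list was chosen with earlier results of these data known, and the paper had reported Ptgs2 (Cox2) and Il1b as repressed by T0. The count of 6 is thus no independent result on bound mRNAs. All 19 also rose with LPS, and LPS-induced genes outside the list were not set beside them. Il1a, an IL-1 receptor ligand, went from 47.2 ± 13.5 CPM in LPS to 26.0 ± 6.61 CPM in T0+LPS (SD, n = 3, adjusted p = 0.011 from edgeR), lost its call with DESeq2 (adjusted p = 0.10) and without T0+LPS replicate 2 (adjusted p = 0.069 from edgeR). Il23a, a subunit of IL-23, went from 2.94 ± 0.480 to 1.33 ± 0.192 CPM (SD, n = 3, adjusted p = 0.015 from edgeR). Its edgeR call was lost without LPS replicate 1 (adjusted p = 0.11), T0+LPS replicate 1 (0.057) or T0+LPS replicate 2 (0.061). Tnf, the best-known target of tristetraprolin, was measured on only 48 bases and had 5.84 ± 0.833 CPM in LPS (SD, n = 3), which is no measure of its abundance.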

How the data were processed

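Polyadenylated RNA from 9 BMDM libraries was sequenced. The authors used cutadapt for adaptors, HISAT2 for alignment (mm10 transcriptome) and featureCounts for counting on RefSeq, and they deposited raw whole counts. Bases that belong to more than 1 row carry no reads in the table, which leaves genes with many transcripts few countable bases. Each of the 10 genes had 1 row, and all their bases were unshared except in Zc3h12c (6016 of 6133). Strandedness of the counting is not given in the sources used here. The authors' own comparison tables (p-values, RPKM ratios and gene names) were not used.

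Rows were summed per symbol over 32850 rows. Comparisons were fitted to 6 libraries with edgeR 4.0.16 in R 4.3.3 (TMM, filterByExpr, quasi-likelihood test, Benjamini-Hochberg adjustment at 0.05). An exact permutation test of 3 against 3 cannot go below p = 0.1. Intervals are 95% intervals of the edgeR fit. DESeq2 1.42.0, limma-voom (limma 3.58.1), other scalings, no filter, a fit to all 9 libraries, the replicate block, table rows and fits without each library were alternatives. Tests were checked on simulated data. Libraries of a group differed by more than sampling noise (chi-square per degree of freedom 2.63 to 6.67) and, per the study's methods, BMDM experiments used separately differentiated cultures, which the labels do not state for each library. P-values measure the spread between these libraries.

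Named list genes are the 2 largest called increases and decreases by fitted log2 fold change with LPS at 5 CPM or more of each list, and every list gene called with T0. For Zfp36 and Zc3h12a the 3 nearest patterns are named. The genes and lists were chosen with earlier results of these data known. 3′UTRs are from GENCODE M21 (GRCm38), and promoter windows from RefSeq (GRCm38.p6). Protein sequences were not analysed here.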

Additional observations from a re-analysis of the deposited data

How the results depend on the processing

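For LPS against Veh, all 10 genes kept their call and direction in the 6 fits without a library, and 9 of them in the 8 other settings. With library totals alone, Khsrp was -0.0947 and Pabpc1, a named list gene, was -0.0512 on the log2 scale, and the calls over all genes were 1694 higher and 5411 lower. For T0+LPS against Veh the same setting gave -0.114 for Khsrp, and 1659 higher and 5523 lower. With library totals alone the median of all genes was -0.284 in LPS against Veh and -0.289 in T0+LPS against Veh. In T0+LPS against LPS it was -0.0022. Which scaling lies nearer to the RNA in the cells was not tested. For T0+LPS against LPS, all genes called numbered 126 higher and 171 lower, 225 and 285 without a filter, 59 to 167 and 82 to 191 in fits without a library. The 10 genes had 1 lower call, 2 when 9 libraries were fitted together, and 0 to 2 in fits without a library. The cause was not tested. Without a library, log2 fold changes near 0 changed sign for Rc3h1 (-0.113 to 0.0238), Elavl1 (-0.0296 to 0.0246), Khsrp (-0.0381 to 0.0122) and N4bp1 (-0.0996 to 0.0106), and Elavl1 was -0.0043 with library totals alone. None of these was called. Cnot3 and Dcps lost their calls with DESeq2 in LPS against Veh (adjusted p 0.060 and 0.052), and Cnot3 also without Veh replicate 1 (0.065 from edgeR).

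The labels give the libraries only a number, and whether equal numbers share a mouse or culture is not stated. Deviations from the group means correlated, between libraries of the same number, at values between -0.03 and 0.053, and not every library correlated best with its own number. With the replicate block in edgeR, LPS against Veh had 3053 higher and 2926 lower genes, T0+LPS against LPS 155 and 230, and T0+LPS against Veh 3078 and 3124. The calls of the 10 genes did not change with the block.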

Other observations

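The regulators hand an mRNA over to general decay enzymes, whose genes were described as lists. Over all genes, 64.1% were called in LPS against Veh, 32.9% higher and 31.2% lower, and the called shares of the first 3 lists lie near that background. Of 14 tested genes of deadenylation, 3 rose and 5 fell with LPS, with a median log2 fold change of -0.05 beside -0.0019 for all genes. Cnot1, Cnot2, Cnot6l, Cnot7 and Pan2 of this list were not tested, so the list covers only part of the deadenylation genes. Btg1, an antiproliferative cofactor of the CCR4-NOT complex, rose from 309 ± 4.68 CPM in Veh to 931 ± 55.0 CPM in LPS (SD, n = 3), a log2 fold change of 1.59, and Tob1, a related cofactor, fell by 0.93 on the log2 scale. Cnot3, a CCR4-NOT subunit, had -0.19, and Pabpc1, the cytoplasmic poly(A)-binding protein, had 0.23, which turned to -0.05 with library totals alone. Of 14 tested genes of decapping and 5′ to 3′ decay, 6 rose and 3 fell, with a median of 0.13. Patl1, a decapping activator, had a log2 fold change of 0.70, Dcp2, the decapping enzyme, had 0.61, and Dcp1b, its cofactor, had -0.80, with Dcps, the scavenger decapping enzyme, at -0.29. Of 13 tested genes of the exosome and 3′ to 5′ decay, 6 rose and 1 fell, with a median of 0.18, Exosc3 at 0.57, Skiv2l2 at 0.47 and Exosc7 at -0.43. Among other RNA-binding proteins of AU-rich or stem-loop elements, 9 of 22 in the table were tested, and 7 rose and 1 fell, with a median of 0.37. Pcbp1, a poly(C)-binding protein, had 0.69, Hnrnpab had 0.71 and Tial1, a translational silencer, had -0.18. In that list, 11 of the untested genes had several rows in the table. The same was so for 5 untested genes of deadenylation, 3 of decapping and 4 of the exosome list. All of these log2 fold changes passed an adjusted p of 0.05 in edgeR's quasi-likelihood test. In T0+LPS against LPS, edgeR called no gene of these 4 lists, where 3.18% of all genes were called.

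Among 7301 genes with a mean of at least 5 CPM, those whose log2 CPM, centred on each gene's mean, lay nearest to Zfp36 over the 9 libraries were Mak16, a ribosome biogenesis factor (root mean square distance 0.04), Rnf149, a RING finger protein (0.05), and Pcdh7, a protocadherin (0.06). Mak16 had means of 28.6, 57.2 and 50.1 CPM in Veh, LPS and T0+LPS. Nearest to Zc3h12a were Pim1, a serine/threonine kinase (0.05), Orai2, a calcium channel subunit (0.09), and Arrdc4, an arrestin domain protein (0.09). Pim1 had means of 93.1, 919 and 828 CPM.

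The promoter of Zfp36, the only one of the 10 genes called in both LPS against Veh and T0+LPS against LPS, is shown because its window held matches to motifs of EGR factors and SRF. The window is the 250 bases before the start site, at chr7:28379229-28379478 on the minus strand of GRCm38.p6, from RefSeq, with matches in capitals.
Zfp36: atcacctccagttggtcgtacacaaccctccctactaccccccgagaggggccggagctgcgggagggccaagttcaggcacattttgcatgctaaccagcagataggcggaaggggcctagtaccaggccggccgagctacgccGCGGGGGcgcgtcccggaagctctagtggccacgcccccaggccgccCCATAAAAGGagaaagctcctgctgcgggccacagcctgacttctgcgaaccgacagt
The first match is the EGR motif GCGNGGG, whose first base lies 105 bases before the start and which 20.3% of 32851 promoter windows held on either strand. The other is the CArG box of SRF, at 58 bases before the start, held by 1.47% of windows, a motif added after the data were seen. The AP-1 motif TGANTCA matched in the windows of Zfp36l1 and Rc3h1 and in 6.75% of all windows. For Zc3h12c, the RefSeq windows start 295 or more bases from the start of the table's row, and 1 of them held a match to the NF-κB motif, as did 7.25% of all windows. The promoter of Zfp36l2 was not analysed here. The other windows, among them that of Zc3h12a, held no match to these motifs, to the CRE core TGACGTC or to the DR4 element of LXR (AGGTCA repeated after 4 bases), which says only that these letters are not in those windows. Of all windows, 2.78% held the CRE core and 0.0152% the DR4 letters. A DR4 match was thus improbable in any window, and its absence carries no information on these genes. A match is a description of the sequence and not a site of binding.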
